A study of Mus musculus with 2 samples.

Results

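The bZIP genes described here are 40 named mouse genes of the AP-1, ATF, CREB, MAF, CNC and BACH groups, with Xbp1, out of 21519 protein-coding genes in the gene table. They were listed by name, with earlier results of these peaks already known, and leave out the PAR and C/EBP groups. A gene was counted as near a peak when the centre of a FLAG-HLF peak (a ChIP-seq peak of the tagged factor HLF) fell within the gene or no more than 20 kb from it. By this rule 17 of the 40 genes were near a peak, through 20 peaks of the 3153 in the list.

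The study mapped binding of HLF (hepatic leukemia factor), a PAR bZIP transcription factor, by chromatin immunoprecipitation and sequencing (ChIP-seq) with an anti-FLAG antibody. The cells were Lin-Sca-1+c-Kit+ cells of C57BL/6 mice, a sort that enriches blood stem cells and early progenitors. The mice were aged 8 to 10 weeks and the tissue was labelled as blood. The cells were infected with a MigR1 retrovirus carrying 3xFLAG-HLF/HLF, or with the MigR1 empty vector as control. Both were cultured for 5 days in OP9 medium with SCF at 50 ng/ml, IL-3 at 5 ng/ml, and both Flt3L and IL-7 at 10 ng/ml. There was 1 library of each, and the control library was not analysed here. The tagged factor came from a viral vector, so the peaks describe introduced HLF and not the cells' own. A peak list cannot show whether the cells express their sorting markers, and that label was not checked. Without a replicate there is no test of the binding, and no value below carries an error between cultures. Read depth is unknown from a list of positions alone, and a gene without a listed peak was not shown to be unbound.

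Proteins with a basic leucine zipper (bZIP) bind DNA as pairs: the zipper joins the partners and the basic region reads the site. FOS proteins pair with JUN proteins to form AP-1, and small MAF proteins pair with CNC and BACH proteins. CREB1, ATF1 and CREM pair largely among themselves. AP-1 answers growth factor and stress signals, CREB answers cyclic AMP, ATF4 and XBP1 serve the integrated stress and unfolded protein responses, and the CNC and BACH proteins control oxidative stress, haem and blood lineage genes. HLF belongs to the same superfamily and reads a palindrome close in form to the CREB and C/EBP sites.

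The bZIP genes lay near peaks more often than protein-coding genes at large. The share was 42.5% (17 of 40, exact Clopper-Pearson 95% interval 27.0 to 59.1%), against 15.3% of all protein-coding genes. Intervals here cover counting error over genes only. A long gene takes in more peaks by its size, so each member was also set beside the protein-coding genes of its own length class. Averaged over the members, 16.2% of such genes were near a peak, which would give 6.47 of 40. The difference was 26.3 percentage points (10.9 to 42.9 from the interval of the members' share), or 2.63 times the length-matched number. The number of peaks lying 20 to 500 kb from the gene had a median of 2 for the members and 2 for all protein-coding genes. With the comparison genes matched on rank classes of that number as well as on length, the difference was 24.5 points. Genes with equal numbers could fall in different classes by their order in the gene table, so this matching was coarse. The members were chosen with earlier results of these peaks known, so no p-value was computed.

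The excess was present inside the genes as well as around them. A peak centre lay in the body of 9 members, or 22.5%, against 6.94% of all protein-coding genes and 6.63% of those of like length. Body length had a median of 11.8 kb for the members and 17.4 kb for all protein-coding genes. With a window of 5 kb 10 members were near a peak (25%, against 9.58% of all protein-coding genes), with 10 kb 11 (27.5%, against 11.6%) and with 50 kb 22 (55%, against 24.6%). Within 1 kb of either gene end there were 3, Atf3, Atf4 and Nfe2 (7.5%, against 1.76%). With each peak given only to the gene of the nearest end, within 100 kb, there were 15 (37.5%, against 11%). Seen as distance, the nearest peak centre was a median of 42.1 kb from a member and 179 kb from a protein-coding gene. Over 100 kb from any peak were 12 members (30%), against 63.1% of protein-coding genes.

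**Figure D1:**
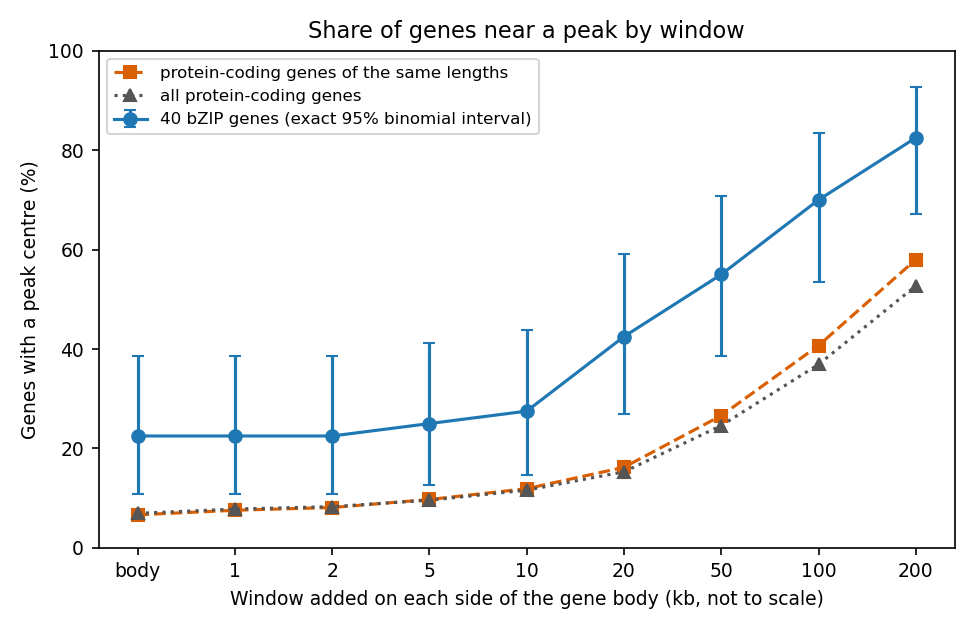
Share of genes with a peak centre (vertical axis, %) against the window added to each side of the gene body (horizontal axis, kb, not to scale), for the 40 bZIP genes with exact 95% binomial intervals, for protein-coding genes of the same lengths and for all protein-coding genes. The bZIP share runs from 22.5% in the body to 42.5% at 20 kb and 82.5% at 200 kb, above the length-matched 6.63%, 16.2% and 58.0%.

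Other transcription factor families, taken by their symbols after the data were seen, also had high shares. Of 29 ETS and RUNX genes 13 were near a peak (44.8%, 26.4 to 64.3%), with 5.33 given by length. Of 25 nuclear receptor genes with symbols in Nr there were 9 (36.0%, 18.0 to 57.5%), with 4.39 given by length. Of 30 KLF, SP and EGR genes there were 8 (26.7%, 12.3 to 45.9%), with 4.5 given by length. These intervals overlap that of the bZIP genes, and the differences between families were not tested, so the excess is not shown to be particular to bZIP genes.

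The divisions of the family differed in their counts. MAF, CNC and BACH genes had 7 of 12 members near a peak (58.3%, 27.7 to 84.8%), where gene length gave 1.91. AP-1 genes (JUN, FOS, BATF and JDP2) had 4 of 11 (36.4%, 10.9 to 69.2%), where length gave 1.51. ATF and CREB genes with Xbp1 had 6 of 17 (35.3%, 14.2 to 61.7%), where length gave 3.05. The intervals overlap widely. Of 13 finer subfamilies 11 had at least 1 member near a peak, and the 2 without one were the JUN genes (0 of 3) and the membrane-bound ATF6 and CREB3 genes (0 of 7).

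**Figure D2:**
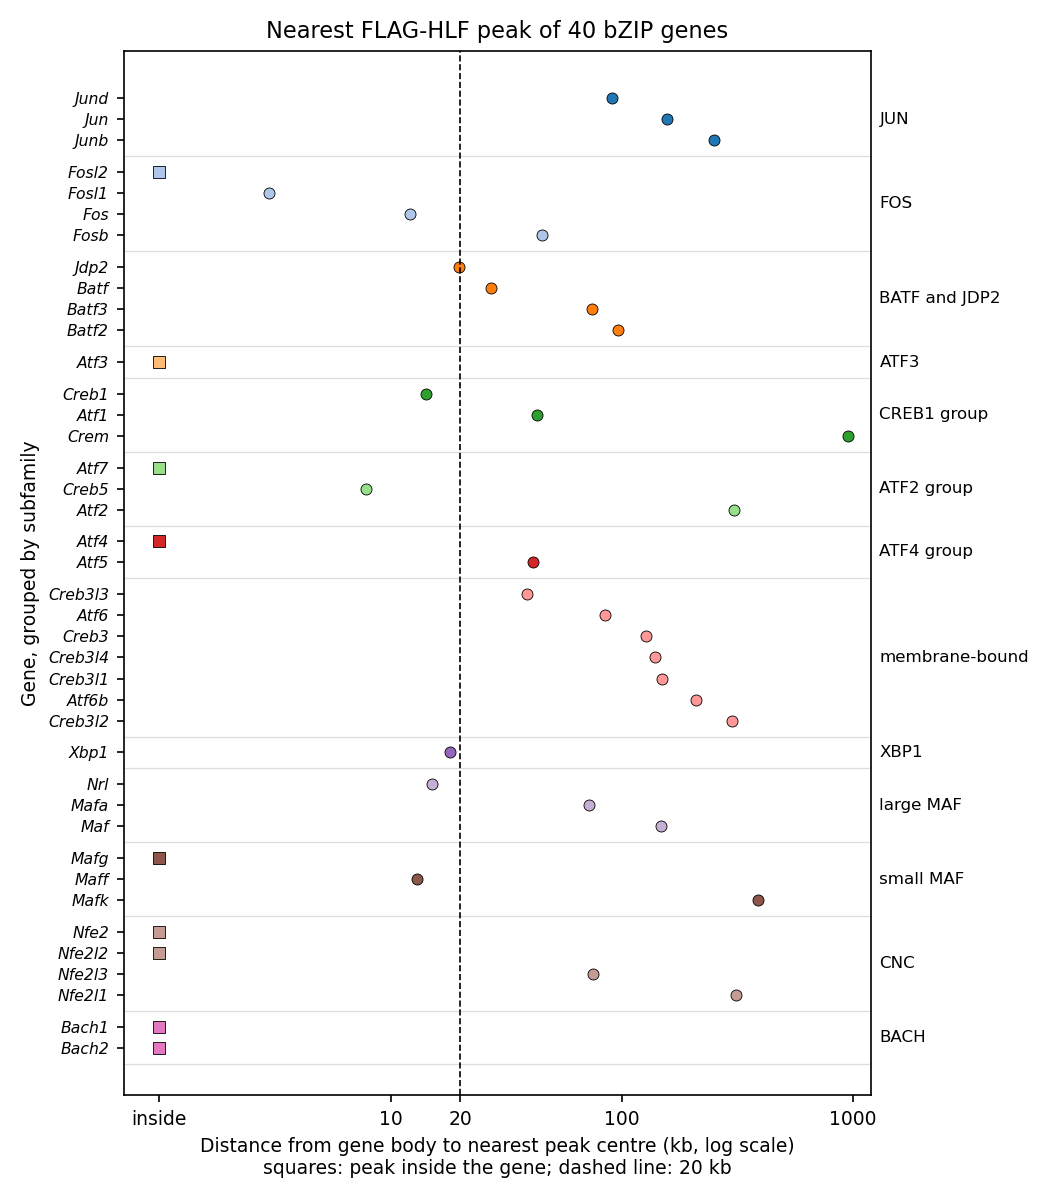
Distance from each of the 40 genes to its nearest FLAG-HLF peak centre (horizontal axis, kb, log scale), with genes grouped by subfamily on the vertical axis; squares mark genes with a peak inside, and the dashed line marks 20 kb. The 9 squares are Fosl2, Atf3, Atf7, Atf4, Mafg, Nfe2, Nfe2l2, Bach1 and Bach2, while the 3 JUN genes sit between 91.0 and 251 kb.

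Of the AP-1 genes, those of the FOS side of the dimer had 3 of 4 members near a peak, where length gave 0.536. Fosl2, which encodes the FOS-related protein FRA-2, had 2 peaks inside the gene (chromosome 5, 32136472 to 32157840), centred 2.19 and 3.12 kb downstream of its start and 933 bp apart. No other protein-coding gene lay within 20 kb of either. Fosl1, which encodes FRA-1 (chromosome 19, 5447698 to 5455938), had 1 peak 2.98 kb outside the gene. That peak was also within 20 kb of 4 other genes, though Fosl1 had the nearest gene end. Fos, the immediate-early gene of c-FOS (chromosome 12, 85473890 to 85477274), had 1 peak 12.1 kb beyond its 3′ end and in reach of no other protein-coding gene. Fosb was not near a peak, and its nearest lay 45.1 kb away.

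No JUN gene was near a peak. The nearest centre was 91.0 kb from Jund, 157 kb from Jun and 251 kb from Junb. These are short genes of 1.84 to 3.19 kb, and gene length gave 0.343 of 3. Whether the JUN and FOS genes differ was not tested.

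The BATF and JDP2 proteins bind AP-1 sites with JUN partners, BATF acting in lymphocytes and dendritic cells and JDP2 largely as a repressor. Jdp2 alone of these 4 genes was near a peak, and only just: the centre lay 19.8 kb beyond the gene, inside a noncoding gene, Gm33312. The same peak stood 27.1 kb from Batf, just outside the window. Fos, Jdp2 and Batf lie in a row within 235 kb of chromosome 12, and the span from Fos to Batf held 2 peaks, both in the gaps between these genes. Batf3 and Batf2 had their nearest peaks at 74.4 and 96.5 kb. Jdp2 was the member nearest to the 20 kb limit on the inside, and Batf the nearest on the outside.

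**Figure D3:**
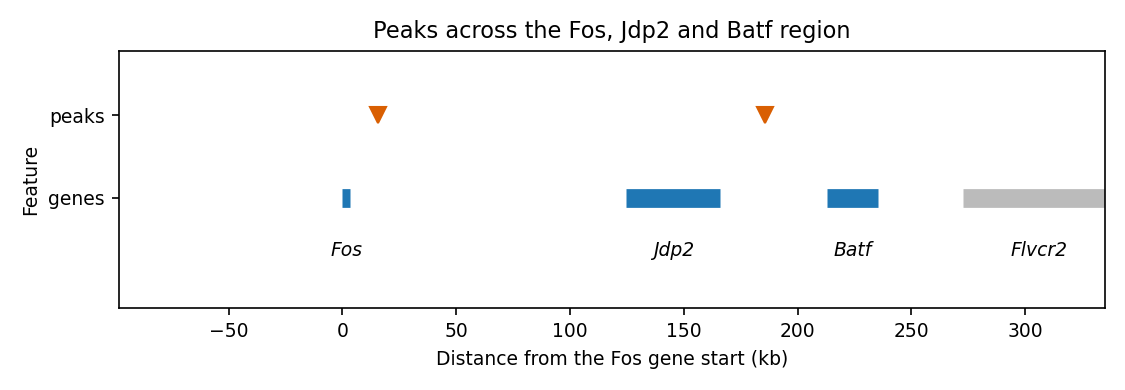
Peaks (triangles) and protein-coding genes (bars, members in blue) across the region that holds Fos, Jdp2 and Batf, by distance from the Fos gene start (horizontal axis, kb). The 2 peaks stand 12.1 kb beyond Fos and 19.8 kb beyond Jdp2, and neither lies inside a gene drawn here.

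Atf3 carried the peak closest to an annotated start among the members. ATF3 is a stress-induced factor that can repress its own gene. The gene lies on the minus strand of chromosome 1 (191170296 to 191183333), and the peak (191183131 to 191183530) was centred 3 bp inside its 5′ end, with Fam71a also within 20 kb. It was the only 1 of 32 members with a promoter sequence in RefSeq (GRCm38.p6) whose promoter, meaning 250 bases before to 50 after a start, overlapped a peak. Of 27025 genes with such a sequence 214 had a promoter that did (0.792%), through 227 of 32851 promoters. This set was not limited to protein-coding genes, of which 17273 had a promoter sequence, while all the members are protein-coding. The stretch upstream of the Atf3 start that lay under the peak is shown because it is the piece of member sequence where a peak and a start coincide. It covers chr1:191183334-191183530 on the minus strand, 197 bases ending just before the start, with an 8-base sequence in capitals.
Atf3 promoter: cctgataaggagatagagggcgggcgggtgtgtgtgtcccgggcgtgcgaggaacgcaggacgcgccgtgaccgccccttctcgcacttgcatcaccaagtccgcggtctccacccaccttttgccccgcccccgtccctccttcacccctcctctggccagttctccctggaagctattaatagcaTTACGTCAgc

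The capitals mark TTACGTCA, from 10 to 3 bases upstream of the start, whose nearer end was 6 bp from the peak centre. Against the PAR site TTACGTAA it differs by A7C, and against the CRE (cyclic AMP response element) TGACGTCA by G2T, counting from 1 at the 5′ end of the site with the base of the named site first. Neither exact form was in this promoter, nor were TTATGTAA, TTANNTAA, the C/EBP site TTGCGCAA or the AP-1 site TGANTCA, each searched on both strands. TTACGTCA was chosen after this sequence was read. It occurred in 0.499% of all promoters and in 1.76% of those overlapping a peak (4 of 227). The 4 include the Atf3 promoter from which it was taken, and without that promoter there were 3 of 226 (1.33%). The PAR form TTATGTAA occurred in 0.938% of all promoters and in 6.17% of those overlapping a peak (14 of 227), and the PAR form TTACGTAA in 0.119% and 0.441% (1 of 227). The relaxed form TTANNTAA occurred in 6% of all promoters and 15.9% of those overlapping a peak, the C/EBP site in 0.183% and 2.64%, the CRE in 1.79% and 3.52%, and the AP-1 site in 7.81% and 6.17%. These shares were not tested. Here and below, all promoters include those of genes that are not protein-coding.

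Among the other member promoters (45 sequences of 32 genes in all), matches were few and stood apart from the peaks. They are shown to set the form in the Atf3 promoter, 1 base from each, beside the PAR site and the CRE in promoters of the same family, with the match in capitals. None of the promoters below overlapped a peak.
Jdp2, chr12:85599044-85599073, plus strand, PAR site read on the other strand: aggggatgcgcTTACATAAccgctcgccgt
Creb3l2, chr6:37442326-37442355, minus strand, the Atf3 form read on the other strand: gcgttccccagTGACGTAAaagaccctctc
Creb5, chr6:53287247-53287276, plus strand, CRE: ggaatcccacgTGACGTCAccgggggggtg
Maff, chr15:79347480-79347509, plus strand, CRE: ggctggggcggTGACGTCActgcatgactg
Jdp2 was thus the 1 member with a PAR site in a promoter, although its listed peak lay 59.6 kb downstream of the nearest start. That is 1 of the 45 member promoters (2.22%) for TTATGTAA, against 0.938% of all promoters. For the relaxed form TTANNTAA it was the same 2.22%, below the 6% of all promoters, and TTACGTAA was in 0 member promoters. The CRE was found in 2 of the 45 member promoters (4.44%), those of Creb5 and Maff, against 1.79% of all promoters. The AP-1 site, not shown above, was also found in 2 (4.44%), of Creb3l3 and Creb5, against 7.81% of all promoters. A match describes these letters and is not evidence of binding.

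Of the other ATF and CREB genes, Atf4 had the peak next closest to a start. ATF4 directs amino acid synthesis and stress genes in the integrated stress response. Its gene is 2.36 kb long (chromosome 15, 80255184 to 80257545), and the peak centre lay inside it, 928 bp downstream of the start. This peak was also within 20 kb of Mief1 and Rps19bp1. Atf5, its close relative, had none nearer than 41.4 kb. With Atf3, Atf4 made 2 of 32 members (6.25%) with a peak centre within 1 kb of an annotated start, against 1.74% of 17273 protein-coding genes with a promoter sequence. Within 5 kb there were 5 (Fosl2, Atf3, Atf4, Mafg and Bach1; 15.6%), against 4.1%.

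In the ATF2 group, whose proteins are targets of stress kinases, Atf7 and Creb5 were near peaks and Atf2 was not, its nearest being 304 kb away. Atf7 (chromosome 15, 102525946 to 102625464) held 2 peaks 89.8 kb apart, one 7.61 kb downstream of the start and the other 97.4 kb downstream, 2.13 kb inside the far end. The second was also in reach of Map3k12, Tarbp2 and Npff, and the first of no other gene. Creb5 had 1 peak 7.79 kb beyond its 3′ end and 135 kb from the nearest annotated start. At 413 kb Creb5 is the longest of the members, in a length class where 30.7% of genes were near a peak.

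In the CREB1 group, Creb1, which encodes the main cyclic AMP-responsive activator, had 1 peak 14.2 kb upstream of the start, inside a noncoding gene, Gm36148. Atf1 had its nearest at 42.9 kb. Crem was the most distant of all 40 members at 950 kb. Xbp1, whose mRNA is spliced by the sensor IRE1 in the unfolded protein response, had 1 peak 18.1 kb upstream, inside another noncoding gene, Gm11963. The factors held in the endoplasmic reticulum membrane until cleavage had none within 20 kb: Creb3l3 was nearest at 38.8 kb, Atf6 stood at 84.8 kb, and Creb3, Creb3l4, Creb3l1, Atf6b and Creb3l2 at 127 to 300 kb. Length gave 1.23 of these 7 genes.

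Both BACH genes (2 of 2, where length gave 0.468) and 2 of the 4 CNC genes (where length gave 0.629) held peaks. BACH1 represses haem oxygenase and other genes at MAF recognition sites until haem releases it. Bach1 (chromosome 16, 87698954 to 87733346) had 1 peak 1.1 kb downstream of the start and 1 at 17.5 kb upstream, neither in reach of another protein-coding gene. Bach2, a B and T cell regulator (chromosome 4, 32238413 to 32586109), had 1 peak 10.6 kb inside its 3′ end and 158 kb from its annotated start. Its length of 348 kb puts it, with Creb5, in the class where 30.7% of genes were near a peak.

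Nfe2 encodes the p45 subunit of NF-E2, a factor of megakaryocyte and erythroid genes. Its peak (chromosome 15, 103258185 to 103258584) was centred 19 bp inside a gene end, and Cbx5, Hnrnpa1 and Copz1 were also within 20 kb. Nfe2l2, which encodes NRF2, the main activator of antioxidant genes, had 1 peak 19.0 kb downstream of its start, inside the gene and also in reach of Hnrnpa3. Nfe2l3 and Nfe2l1 had none nearer than 74.9 and 313 kb.

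The small MAF proteins lack an activation domain and act as partners of the CNC and BACH proteins. Mafg held 1 peak inside the gene, 2.95 kb downstream of the annotated start, in a crowded stretch where Pcyt2, Sirt7, Pycr1 and Myadml2 were also within 20 kb. Maff had 1 peak 13.0 kb upstream of the gene, and Pla2g6 had the nearer gene end. Mafk had its nearest at 388 kb. Of the large MAF genes, Mafa and Maf stood at 71.9 and 147 kb. Nrl, a factor of rod photoreceptors, was counted through a peak 15.2 kb outside the gene. That peak lay 130 bp upstream of the start of Pck2, a mitochondrial enzyme gene, and overlapped the Pck2 promoter, so Pck2 is the nearer gene by far. Dcaf11 was also within 20 kb of it.

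**Figure D4:**
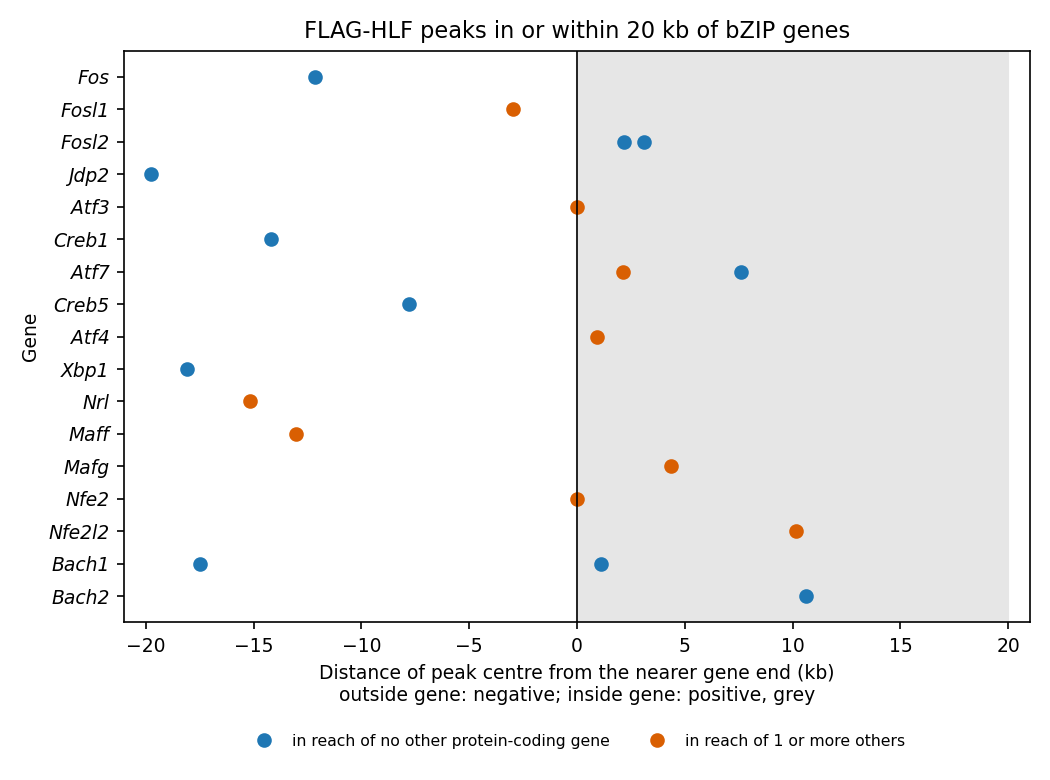
Position of the 20 peaks relative to the nearer end of each of the 17 genes (horizontal axis, kb; negative outside the gene, positive inside on grey), coloured by whether another protein-coding gene was also in reach. The peaks of Atf3 and Nfe2 sit on a gene end (3 and 19 bp), and 11 of the 20 peaks are in reach of no other protein-coding gene. Of all 3153 peaks, 51.0% were in reach of exactly 1 protein-coding gene and 599 were in reach of none. Those 599 are in the base of the 51.0%, whereas each of the 20 peaks is in reach of a gene by the rule. Among peaks in reach of a gene the share is therefore higher than 51.0%. The 11 of 20 cannot be set directly against 51.0%, and the peaks of the members are not shown to be less shared.

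Across the 17 genes, the peaks were mostly single, as for all protein-coding genes near a peak, and mostly closest to the member itself. Of the 17 genes 14 had 1 peak and 3 had 2 (Fosl2, Atf7 and Bach1). Among all protein-coding genes near a peak 17.8% had 2 or more, and among the members 17.6%. Both shares count peaks without merging. With peaks under 1 kb apart merged, Fosl2 had 1 peak. Of the 20 peaks 11 lay inside a member and 9 outside, at a median of 7.7 kb from the nearer gene end. The member had the nearest protein-coding gene end for 18 of them, the exceptions being those of Nrl and Maff. No matching share over all peaks was computed for the place or the nearest end, so neither is shown to be particular to the members. Where the start was annotated, 5 peaks lay upstream of it (Creb1, Xbp1, Nrl, Maff and 1 of Bach1) and 13 downstream. The 13 include those of Fos, Jdp2 and Creb5, which lay beyond the 3′ end. No such split was computed for other genes, so it is not shown to be particular to the members. Counting only the peaks in reach of no other protein-coding gene left 9 members (22.5%: Fos, Fosl2, Jdp2, Creb1, Atf7, Creb5, Xbp1, Bach1 and Bach2), against 6.06% of all protein-coding genes and 5.84% of those of like length.

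At 20 kb, genes that act with these factors, counted over 4 lists, were near peaks about as often as their length gives. Of 33 such genes 7 were near a peak (21.2%), where length gave 6.09. The unfolded protein and integrated stress response list lay above its length number, and the CREB coactivators lay below theirs. With the PAR bZIP, NFIL3 and C/EBP group added, 16 of 43 genes had a peak within 50 kb, against 24.6% of all protein-coding genes. That count was not set against length. The kinases upstream of AP-1 and CREB had 2 of 10, where length gave 1.88: Mapk14, which encodes p38 alpha, with 3 peaks, of which 2 lay inside the gene, and Mapk3, which encodes ERK1, with 1 at 13.3 kb outside. The unfolded protein and integrated stress response genes had 3 of 8, with 1 peak each: Eif2ak1, the haem-regulated kinase that acts above ATF4, Eif2ak4, which senses amino acid shortage, and Ern1, which encodes IRE1. Length gave 1.4 of these 8. All 3 peaks were also in reach of other protein-coding genes: 3 for Eif2ak1, 1 for Eif2ak4 and 2 for Ern1. The NRF2 and BACH1 pathway had 2 of 10, Txnrd1 (thioredoxin reductase) with 1 peak at 2.48 kb and Sqstm1 (p62) with 1 at 18.5 kb, where length gave 1.72. The Sqstm1 peak was also in reach of 2 other protein-coding genes, and the Mapk14 peak outside the gene of 1. Keap1, Hmox1, Nqo1, Gclc and Gclm were among those of the NRF2 and BACH1 pathway with none. The CREB coactivators Crebbp, Ep300, Crtc1, Crtc2 and Crtc3 had 0 of 5, where length gave 1.09.

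The nearest relatives within the superfamily, 10 PAR bZIP, NFIL3 and C/EBP genes, had 2 near a peak, Tef and Nfil3 (20%, where length gave 12.9%). The difference between this group and the 40 members was not tested.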

How the data were processed

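The deposited file holds peak positions (chromosome, start and end) on mm10 with no header, score, height or p-value. Its 3153 intervals are 400 bp wide. The submitters' processing notes list Bowtie2 2.0.6 and MACS2 2.0.10 without saying what each did. How peaks were thresholded, and whether the control library entered the calling, is not given in the sources used here. The interval's centre (start + 200) was taken as the peak's position.

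Genes came from a RefSeq table of GRCm38.p6, which shares mm10 coordinates. Of 49997 rows 787 were left out, being off chromosomes 1 to 19 and X or starting below 3 Mb, where scaffold coordinates appear. All 83 listed genes matched by symbol. Starts and strand came from RefSeq promoter sequences, which 32 members have. Protein-coding genes were put in 20 classes of body length plus windows on the autosomes and 5 on X. The length-matched share is the share near a peak in each member's class, averaged over members. Every member near a peak is named with all its peaks. Members without one are given with their nearest peak, and pathway genes are named where they had a peak.

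The members and lists were chosen with earlier results of these data known. The gene families taken by symbol, the start windows and the TTACGTCA search were chosen after seeing the data. Python 3.11.15, pandas 2.3.3 and scipy 1.17.1 were used, and the counting was checked on simulated peaks. No significance test was run.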

Additional observations from a re-analysis of the deposited data

How the results depend on the processing

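The bZIP share stayed above the length-matched share under every alternative where the latter was computed, which leaves out the start windows. Classes by gene body length alone rank the genes exactly as the reported classes do, since the windows add a constant. That alternative could not change the difference. The difference was 26.3 points as reported, from 14.4 points at 2 kb to 29.3 at 100 kb over windows from the gene body to 200 kb, from 15.9 to 26.5 points under gene bodies, nearest ends, merged peaks, any overlap, other length classes, regional matching, and the background without the members, and 5.62 points within 1 kb of a gene end. Counts of members moved with the width of the rule, by construction: 17 as reported, 11 at 10 kb, 10 at 5 kb, 9 in the gene body, 3 within 1 kb of a gene end, 9 by unshared peaks, and 2 and 5 within 1 and 5 kb of a start. Subfamilies with a member near a peak went from 11 to 7 at 10 kb, 7 at 5 kb, 7 in the body and 3 within 1 kb of an end. Of the 43 pathway genes, the PAR bZIP group included, 9 were near a peak as reported (20.9%, against 15.3% of all protein-coding genes). There were 5 at 10 kb (against 11.6%), 5 at 5 kb (9.58%) and 4 in the body (6.94%). Within 1 kb of an end there was 1 (1.76%), and at 50 kb there were 16 (24.6%). Without Fos, Nfe2 and Bach2, which earlier lists had named near peaks, 14 of 37 members remained and the difference was 21.9 points. That alternative, the windows of 1, 2, 100 and 200 kb, the start windows and all those for pathway genes were added after seeing the data. Of 136 values for single members, 93 stayed within 1.5 times and 43 did not, of which 37 fell to 0. Without a score column no stricter threshold could be run, and the depth, being unknown, sets a limit on sensitivity that cannot be given. No paired analysis was possible because only 1 library was used, which also leaves no replicate to drop.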
